A study of Mus musculus with 24 samples.

Results

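The comparison asks which genes responded differently to lung irradiation in epithelial and in mesenchymal cells of the same organ. For each gene the log2 change from sham to irradiated mice was formed inside the epithelial table and inside the mesenchymal table, and the mesenchymal change was subtracted from the epithelial one. A positive difference therefore means a higher epithelial response, and it can come from a rise in epithelium, a fall in mesenchyme or both. Genes were matched by Ensembl identifier and entered where both tables showed 10 or more normalised counts in 4 or more of their 12 libraries, which 15092 of 48795 identifiers did.

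All mice were female Balb/c of 8 weeks. Sham mice were not irradiated and received control IgG antibody, and irradiated mice received 13 Gy to the lungs and the same control IgG. A further group, irradiated and injected daily with an antibody against Ly6G to deplete neutrophils, entered the fit of the spread and is quoted only beside some results. Lungs were taken 7 days later, and cells lacking CD45 (leukocytes), CD31 (endothelium) and Ter119 (erythroid cells) were divided by EpCAM, with the positive cells as epithelium and the negative cells as mesenchyme. CD31 is given by the cell type labels, whereas the description of the sort writes CD45 a second time where CD31 would stand. Every group held 4 libraries, each from a separate mouse, so the contrast rests on 16 libraries of 24. The mesenchymal gate is negative for every marker used and is defined by no protein of its own, and each fraction is a mixture of cell types.

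Ionising radiation breaks DNA, and the kinases that sense the breaks stabilise the transcription factor p53. p53 binds pairs of a short half-site near its target genes and raises inhibitors of the cell cycle, proteins that promote apoptosis and DNA repair factors, together with Mdm2, the ubiquitin ligase that removes p53 again. In the lung the alveolar epithelium consists of flat type 1 cells for gas exchange and secretory type 2 cells, which make surfactant and act as progenitors, while the mesenchyme holds fibroblasts, pericytes and smooth muscle cells.

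Sequences around p53 half-sites in the promoters of 6 genes are printed because p53 targets stand at both ends of the differences described below. They are from RefSeq on GRCm38.p6, each within the window from 250 bases before to 50 bases after the start site, with the 10-base p53 half-site consensus in capitals. The match was searched on both strands, and the consensus reads the same on both.
Ccng1: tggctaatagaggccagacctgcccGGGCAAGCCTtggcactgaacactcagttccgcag
Bax: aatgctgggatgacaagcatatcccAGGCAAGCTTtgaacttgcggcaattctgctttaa
Ddit4l: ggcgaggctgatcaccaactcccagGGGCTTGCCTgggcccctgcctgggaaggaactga
Cdkn1a: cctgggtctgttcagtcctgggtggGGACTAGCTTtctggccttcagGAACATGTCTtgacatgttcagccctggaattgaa
Mdm2: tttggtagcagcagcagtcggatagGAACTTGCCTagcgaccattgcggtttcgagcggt
Ckap2: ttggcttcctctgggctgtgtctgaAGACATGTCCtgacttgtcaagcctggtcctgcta
The Ccng1 sequence is chr11:40755437-40755496 on the minus strand, and its half-site lies 185 bases before the start. The Bax sequence is chr7:45467065-45467124 on the minus strand, with the half-site 201 bases before the start. The Ddit4l sequence is chr3:137623557-137623616 on the plus strand, with the half-site 90 bases before the start. The Cdkn1a sequence is chr17:29090881-29090962 on the plus strand and holds 2 half-sites separated by 12 bases. The Mdm2 sequence is chr10:117710910-117710969 on the minus strand, and the Ckap2 sequence is chr8:22185988-22186047 on the minus strand. A half-site was present in 5 of the 27 promoters found for genes with a higher epithelial response (18.5%) and in 3 of the 49 found for genes with a lower one (6.12%). The share was 8.27% of the 10369 promoters found for all genes tested and 38.2% of the 34 found for the listed p53 targets. Over all 32851 windows of the table, untested genes included, it was 8.36%. No match was found in the windows of Phlda3 and Dglucy, and a match of letters describes the window and not binding.

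Of the 15092 genes, 95 (0.629%) differed in their response at a Benjamini-Hochberg adjusted p under 0.05 in limma. The epithelial response was the higher one for 30 genes (0.199%) and the lower one for 65 (0.431%). At an unadjusted p under 0.05 there were 2012 genes (13.3%), 963 higher and 1049 lower. In the same fit 544 genes (3.6%) passed for the epithelial response and 1319 (8.74%) for the mesenchymal response, genes passing in both included. These sets shared 182 genes, 33.5% of the epithelial and 13.8% of the mesenchymal calls, and 176 of the shared genes moved the same way in both. A response that passed in 1 fraction and not in the other was seldom shown to differ. The difference was called for 19 of the 362 genes that passed in epithelium only and for 56 of the 1137 that passed in mesenchyme only.

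**Figure D1:**
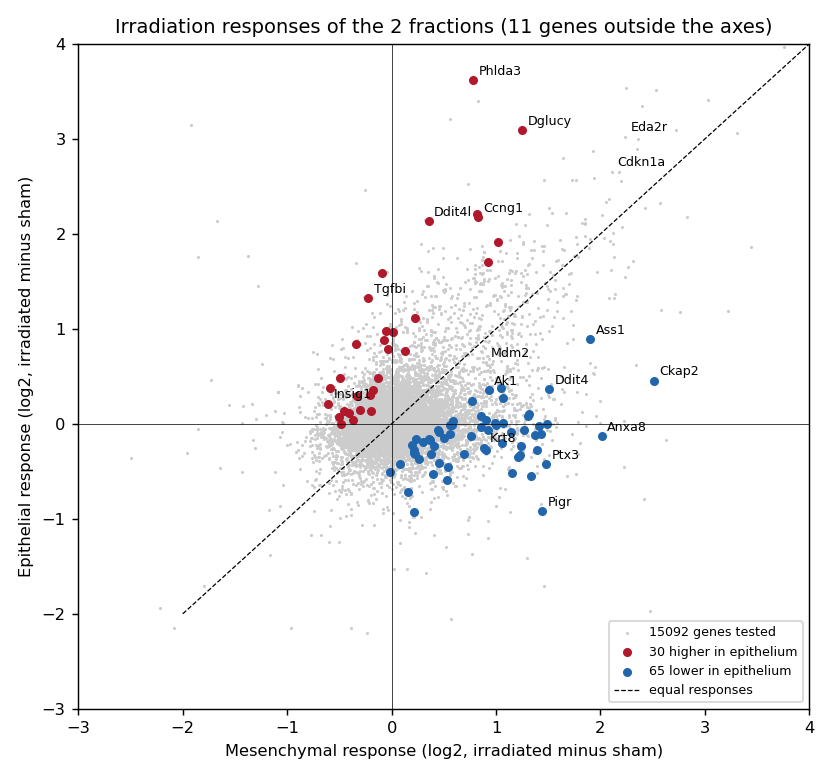
Log2 irradiation response of each gene in epithelium (vertical axis) against mesenchyme (horizontal axis), with the 30 genes higher and the 65 genes lower in epithelium in colour and a dashed line where both responses are equal. Phlda3 and Dglucy lie farthest above the line among the named genes, and most genes below it sit close to 0 on the vertical axis, while 11 genes lie outside the axes.

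Opposite signs were the most frequent form in both directions. Of the 30 higher genes, 19 had opposite signs with the epithelial value above 0, 10 rose in both with the larger value in epithelium, and 1 had both values below 0. Of the 65 lower genes, 47 had opposite signs with the mesenchymal value above 0, 17 had both values above 0 with the larger in mesenchyme, and 1 had both below 0. In that set of 65 the mesenchymal response alone passed the test for 47 genes, both responses for 9, the epithelial response alone for 7, and neither for 2. Among the 30 higher genes the epithelial response alone passed for 12, both responses for 9, and the mesenchymal response alone for 9.

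Most genes of the list of p53 targets rose in each fraction, and for 9 of 45 the responses differed. All 45 genes of the p53 list were tested, 29 rose in epithelium (beside 3.02% of all genes) and 33 in mesenchyme (beside 5.73%), and none fell in either. The difference was called higher in epithelium for 6 (Phlda3, Dglucy, Ccng1, Slc19a2, Bax and Btg2) and lower for 3 (Ckap2, Ddit4 and Ak1), against 0.199% and 0.431% of all genes. The median response of the list was 0.81 in epithelium and 0.87 in mesenchyme on the log2 scale. The median difference was 0.15, beside 0.02 over all genes tested. The 9 limma calls were thus split over both directions, and the remaining members were not called by limma. Of the list, edgeR called 7 higher and 2 lower, and DESeq2 called 9 higher and 3 lower.

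Phlda3 restrains the kinase Akt and is a direct target of p53 (ENSMUSG00000041801, on GRCm38 chromosome 1 from start 135766119 to end 135769136). It had the largest positive difference among called genes. Its normalised counts were 28.3, 32.9, 35.7 and 32.3 in sham epithelium and 337, 537, 375 and 404 in irradiated epithelium. In mesenchyme they were 276, 248, 274 and 305 in sham and 463, 513, 490 and 433 in irradiated mice. No irradiated library overlapped a sham library in either fraction, and the epithelial rise was 12.8-fold against 1.72-fold in mesenchyme. The difference was 2.84 ± 0.152 on the log2(value + 1) scale (SE, limma adjusted p = 9.23e-12). Sham mesenchyme held 30.1 RPM of Phlda3 and sham epithelium 3.07 RPM (a gene's reads scaled to the same total for every library, formed here within each table), so the epithelium started low and the mesenchyme high.

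Dglucy (ENSMUSG00000021185, chromosome 12, start 100779057, end 100896981), which encodes a mitochondrial D-glutamate cyclase, showed the same form. Epithelial counts were 43.9, 62.6, 48.2 and 49.96 in sham and 387, 496, 412 and 477 in irradiated mice. Mesenchymal counts were 99.4, 126, 113 and 121 in sham and 241, 354, 230 and 287 in irradiated mice. The groups did not overlap in either fraction, and the difference was 1.84 ± 0.186 (limma adjusted p = 3.64e-06).

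Ccng1, the gene of cyclin G1 (ENSMUSG00000020326, chromosome 11, start 40748552, end 40755311), started from like levels, with 52.2 RPM in sham epithelium and 58.1 in sham mesenchyme. Its epithelial counts went from 486, 506, 575 and 628 in sham to 2448, 2925, 2088 and 2484 in irradiated mice. The mesenchymal counts went from 574, 501, 553 and 496 to 966, 1107, 805 and 915. All irradiated libraries were above all sham libraries, and the rise was 4.53-fold in epithelium and 1.79-fold in mesenchyme. The difference was 1.35 ± 0.173 (limma adjusted p = 0.000288).

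Slc19a2, a thiamine transporter, rose 3.79-fold in epithelium and 2.05-fold in mesenchyme, a difference of 0.89 ± 0.171 (limma adjusted p = 0.012). Bax, whose product opens the outer mitochondrial membrane during apoptosis, had epithelial counts of 91.7, 82.8, 82.2 and 92.6 in sham and 251, 343, 284 and 278 in irradiated mice. In mesenchyme Bax went from 126, 108, 111 and 125 to 242, 226, 189 and 238. Both fractions rose without overlap, the epithelium by 3.31-fold and the mesenchyme by 1.91-fold, and the difference of 0.79 ± 0.183 passed narrowly (limma adjusted p = 0.0438). The Bax call ended without the filter (limma adjusted p = 0.0603) and with length and GC trends removed (limma adjusted p = 0.0552). Btg2, an antiproliferative gene, rose in epithelium from 6475 ± 45.4 to 8296 ± 658 (SD, n = 4), while its mesenchymal means were 20862 ± 845 in sham and 18568 ± 2742 in irradiated mice. The Btg2 difference was 0.53 ± 0.118 (limma adjusted p = 0.0358).

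**Figure D2:**
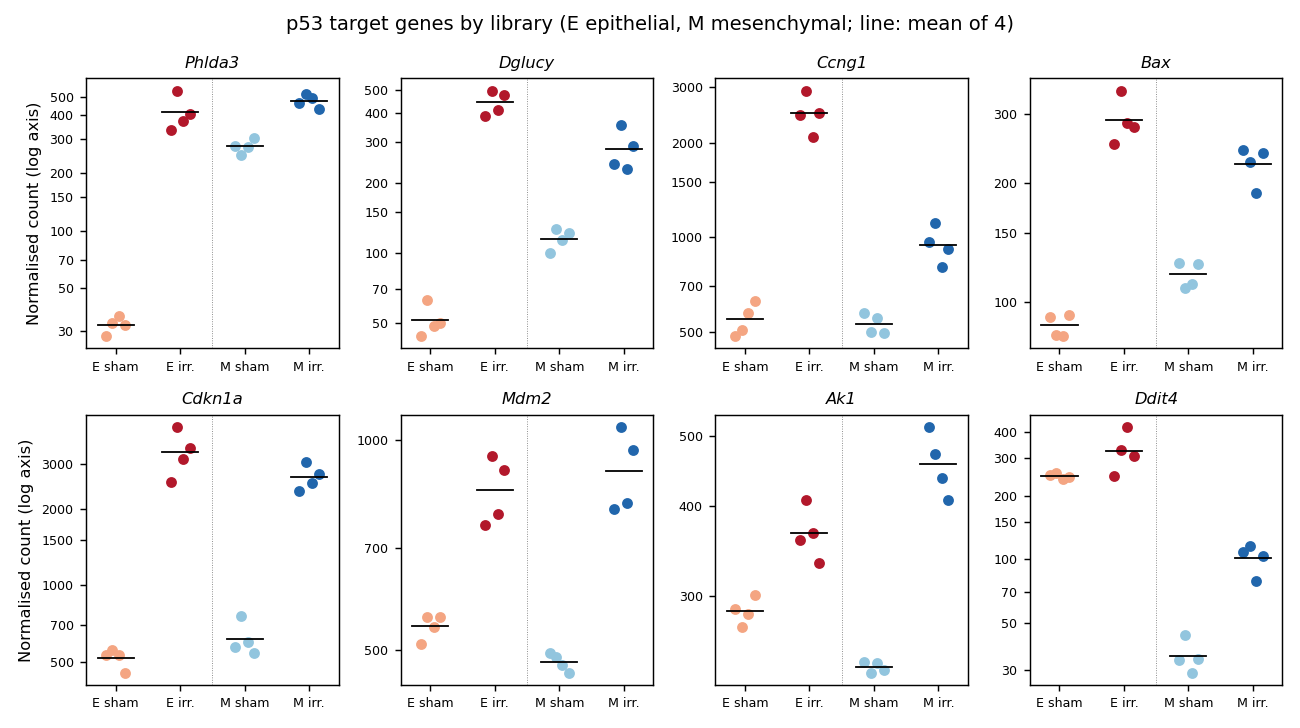
Normalised counts of 8 p53 target genes in each library on log axes, with epithelial (E) and mesenchymal (M) sham and irradiated groups side by side and lines at the means of 4. Phlda3 and Dglucy rise more steeply in epithelium, Cdkn1a and Mdm2 rise in both, and Ak1 and Ddit4 rise more steeply in mesenchyme.

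The targets with a larger mesenchymal response were Ckap2, Ddit4 and Ak1. Ckap2, which encodes a protein of the mitotic spindle, had mesenchymal counts of 6.09, 9.10, 4.04 and 4.99 in sham and 39.2, 56.9, 25.4 and 36.6 in irradiated mice. Its epithelial counts were 15.6, 18.0, 17.0 and 20.8 in sham and 29.4, 33.9, 19.4 and 19.3 in irradiated mice, which overlapped. The Ckap2 difference was -2.06 ± 0.362 (limma adjusted p = 0.0079). No sham mesenchymal count reached the filter limit of 10, so Ckap2 entered in mesenchyme only through irradiated libraries. Ddit4, an inhibitor of the growth kinase complex mTORC1, rose 2.90-fold in mesenchyme, and its epithelial libraries overlapped (response 0.37 ± 0.178, limma adjusted p = 0.375). The Ddit4 difference was -1.14 ± 0.252 (limma adjusted p = 0.0358). That call ended with edgeR (adjusted p = 0.0543) and with a pseudocount of 8 (limma adjusted p = 0.055). Ak1, adenylate kinase 1, had nearly equal sham levels, 27.2 RPM in epithelium and 26.2 in mesenchyme. It rose in both fractions without overlap, from 286 ± 12.1 to 367 ± 30.9 in epithelium and from 239 ± 4.07 to 458 ± 45.8 in mesenchyme (SD, n = 4). Its difference was -0.57 ± 0.112 (limma adjusted p = 0.0122).

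Several standard p53 targets were not called different. Cdkn1a, which encodes the cell cycle inhibitor p21, rose 6.39-fold in epithelium and 4.30-fold in mesenchyme. Its difference of 0.55 had a 95% interval of 0.07 to 1.02 and did not pass the adjustment (limma adjusted p = 0.291). Mdm2 rose 1.57-fold in epithelium and 1.88-fold in mesenchyme, with a difference of -0.26 and an interval of -0.52 to 0.00 (adjusted p = 0.378). Eda2r, a receptor for ectodysplasin A2, had a difference of 0.79 with an interval of 0.30 to 1.28 (limma adjusted p = 0.117). Gdf15, a secreted stress factor, had a difference of 0.65 with an interval of 0.15 to 1.14 (limma adjusted p = 0.216). A pair of listed targets picked after their values were seen mark the range. Aen, an apoptosis-related nuclease, rose by 1.77 in epithelium and 1.75 in mesenchyme on the log2 scale, a difference of 0.02 ± 0.148, and the death receptor Fas missed the threshold with a difference of 0.78 ± 0.199 (limma adjusted p = 0.0656).

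The other genes with a higher epithelial response included matrix proteins, proteases and genes that are abundant in mesenchyme. Ddit4l, a relative of Ddit4 that also restrains mTORC1, had sham levels of 2.00 RPM in epithelium and 2.16 in mesenchyme. Its epithelial counts rose from 28.3, 14.9, 16.1 and 24.98 to 71.4, 111, 87.4 and 106. The mesenchymal counts of 21.3, 24.8, 20.2 and 12.5 in sham and 31.0, 28.5, 18.3 and 23.2 in irradiated mice overlapped. The difference was 1.78 ± 0.337 (limma adjusted p = 0.0115).

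Tgfbi, an extracellular matrix protein induced by TGF-beta, had counts of 611, 396, 436 and 477 in sham epithelium and 1155, 1251, 1172 and 1164 in irradiated epithelium. In mesenchyme the sham counts of 1609, 1494, 1224 and 1328 overlapped with 1464, 1040, 1606 and 860 after irradiation. Its difference was 1.55 ± 0.227 (limma adjusted p = 0.00269). It was the 1 called member of 51 tested matrix and TGF-beta genes, whose median difference was 0.21. Snhg15, a long non-coding RNA that hosts a small nucleolar RNA, rose in both fractions, by 2.21 in epithelium and 0.82 in mesenchyme, with a difference of 1.40 ± 0.278 (limma adjusted p = 0.0139).

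A further set rose in epithelium while the gene was at least 8-fold more abundant in sham mesenchyme by RPM of its own table. Adamts6, a secreted metalloprotease, went from 9.11 ± 2.32 to 29.8 ± 9.11 in epithelium (SD, n = 4) and had a difference of 1.68 ± 0.319. Its sham epithelial counts of 6.83, 7.43, 10.7 and 11.4 did not meet the filter without irradiated libraries. Cd34, a surface glycoprotein of adventitial fibroblasts and endothelium, differed by 1.18 ± 0.222, and its sham level was 12.1 RPM in epithelium and 294 in mesenchyme. Adamts1, another metalloprotease, rose 1.97-fold in epithelium and had a mesenchymal fold of 1.01. The differences of Hspa12b, Fam198b, Tbx3 and Adgrl3 lay between 0.89 and 1.03. The limma adjusted p of these 7 genes ranged from 0.0079 (Fam198b) to 0.0358 (Hspa12b, Tbx3 and Adgrl3). Of all 30 genes with a higher epithelial response, 19 (63.3%) were at least 2-fold more abundant in sham mesenchyme, beside 18.6% of all genes tested. Outside the rule for named genes and chosen after its values were seen, Rev1, a DNA polymerase that copies past damaged bases, rose by 0.76 in epithelium and 0.13 in mesenchyme, a difference of 0.63 ± 0.117 (limma adjusted p = 0.00952).

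Genes of the cholesterol synthesis list had a lower response in mesenchyme than in epithelium across the list. The pathway builds cholesterol from acetyl-CoA and is switched by the factor Srebf2, which Insig1 holds back when sterols are plentiful. All 27 listed members were tested, and the difference was above 0 in 27 of 27, beside 54.0% of all genes tested. The median difference was 0.42, against 0.02 over all genes. At an unadjusted p under 0.05, 17 of the 27 were higher in epithelium, beside 6.38% of all genes, and 1 (Insig1) passed the adjustment in limma and in edgeR, while DESeq2 called 6. In mesenchyme 8 members fell (beside 3.01% of all genes) and none rose, while no member passed in epithelium in either direction.

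Insig1 (ENSMUSG00000045294, chromosome 5, start 28071363, end 28078662) had mesenchymal counts of 1023, 923, 1150 and 1254 in sham and 716, 727, 613 and 795 in irradiated mice. The epithelial counts were 2280, 1873, 2317 and 2341 in sham and 2111, 2758, 2607 and 2756 in irradiated mice. The mesenchymal groups were apart and the epithelial groups overlapped. The difference was 0.82 ± 0.147 (limma adjusted p = 0.00952), made of 0.21 ± 0.104 in epithelium and -0.61 ± 0.104 in mesenchyme.

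The members next in size, named after their values were seen, had differences that missed the adjustment. Idi1, which interconverts the isoprenoid building blocks, had mesenchymal counts of 227, 182, 343 and 274 in sham and 161, 172, 141 and 168 in irradiated mice. Its difference was 0.74 ± 0.205 (limma adjusted p = 0.0941). The sterol oxidase Msmo1 fell by 0.59 in mesenchyme, and its difference was 0.68 ± 0.203 (limma adjusted p = 0.118). Squalene epoxidase, Sqle, fell by 0.52 in mesenchyme and had an epithelial response of 0.05. Hmgcs1, an early synthase of the pathway, fell by 0.39 in mesenchyme. Sham levels of the list were a median of 3.04-fold higher in epithelium than in mesenchyme by RPM. Over the 1534 tested genes that were 2 to 8-fold higher in sham epithelium the median difference was -0.19, opposite in sign to the list. Fatty acid synthesis genes, also sterol-factor targets in part, had a median difference of -0.02 over 22 members and no call in limma or edgeR, with 4 higher and 1 lower at an unadjusted p under 0.05 and 1 call by DESeq2.

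**Figure D3:**
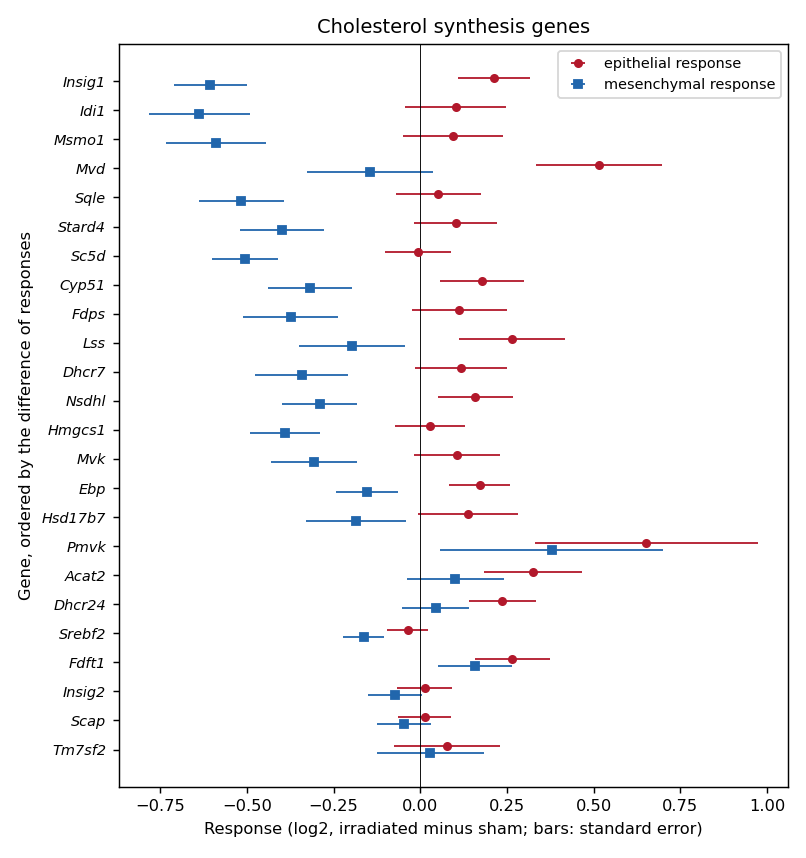
Log2 irradiation responses of 24 cholesterol synthesis genes in epithelium (circles) and mesenchyme (squares), with bars for the standard error of the fit and genes ordered by the difference. The epithelial value lies above the mesenchymal one for every gene shown, from Tm7sf2 at the bottom, where they are nearly equal, to Insig1 at the top.

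Most genes with a lower epithelial response were more abundant in sham epithelium than in sham mesenchyme. Of the 65, 56 (86.2%) were at least 2-fold higher in sham epithelium by RPM, beside 13.7% of all genes tested, and 34 were at least 8-fold higher. The mesenchymal response passed the test for 56 of the 65. Krt8, a keratin of simple epithelia, had mesenchymal counts of 29.4, 22.3, 22.2 and 14.97 in sham and 39.2, 58.0, 32.6 and 37.8 in irradiated mice. Its epithelial means were 1901 ± 129 in sham and 1596 ± 82.7 in irradiated mice (SD, n = 4). The Krt8 difference was -1.14 ± 0.223 (limma adjusted p = 0.0133). Cldn3, a tight junction protein, rose 2.15-fold in mesenchyme from a mean of 11.5 and had an epithelial fold of 1.01, with a difference of -1.06 ± 0.194 (limma adjusted p = 0.00952).

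The same form was seen for Pigr, the receptor that carries antibodies across mucosal epithelium, which had the largest negative difference of the genes named by rule. Its mesenchymal counts were 4.06, 6.62, 9.09 and 6.65 in sham and 14.4, 30.7, 17.3 and 17.1 in irradiated mice. No sham value reached the filter limit of 10, so Pigr entered in mesenchyme only through irradiated libraries. Its epithelial counts of 379, 493, 1116 and 1048 in sham and 538, 366, 227 and 378 in irradiated mice overlapped. The difference was -2.36 ± 0.511 (limma adjusted p = 0.0358). The call ended with edgeR (adjusted p = 0.189), with a pseudocount of 8 (limma adjusted p = 0.0637), without the filter (0.0599) and with the 16 libraries alone (0.0591). The transcription factors Irx3 (-1.48) and Rbpjl (-1.44), the RNA-binding protein Rbm47 (-1.47), the zinc importer Slc39a4 (-1.33), the transporter Abcc3 (-1.54) and Lrg1 (-1.66), a secreted leucine-rich glycoprotein, had differences in the same direction. Their mesenchymal rises were 2.33 to 2.82-fold, and each was at least 8-fold higher in sham epithelium. Muc1 (-0.64), a membrane mucin listed for type 2 cells, and Cbr2 (-0.68), a carbonyl reductase listed for club cells, had smaller differences, with limma adjusted p of 0.0367 and 0.0429.

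**Figure D4:**
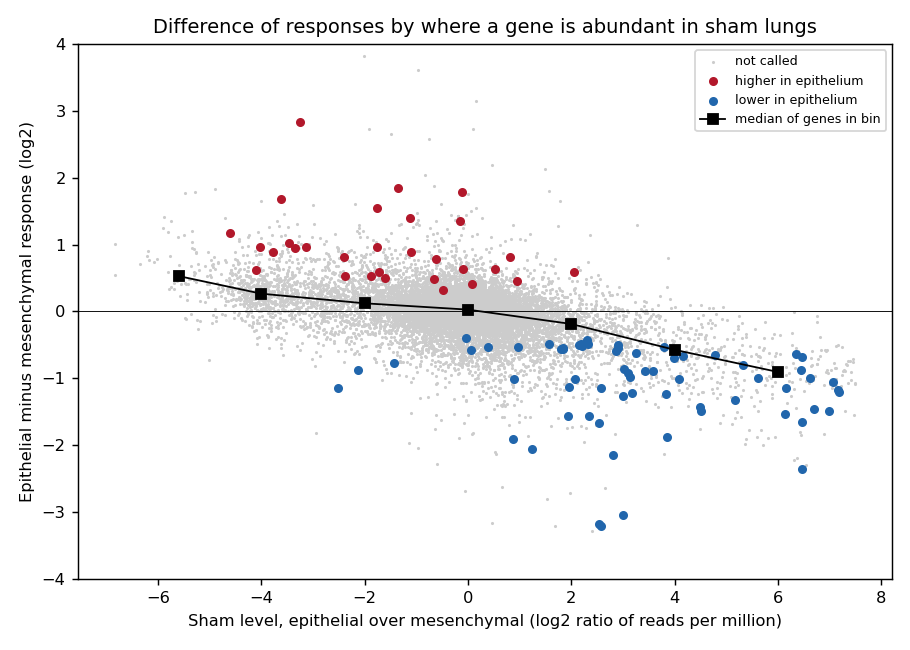
Difference of the irradiation responses (vertical axis, log2) against the ratio of sham levels in epithelium over mesenchyme (horizontal axis, log2 of RPM), with called genes in colour and squares for the median of the genes in each of 7 bins. The bin medians fall from 0.53 among genes over 32-fold higher in mesenchyme to -0.91 among genes over 32-fold higher in epithelium.

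The direction followed the sham level across the whole table. Among the 188 genes that were over 32-fold higher in sham epithelium, the median difference was -0.91, none was above 0, and 16 were called lower. The median mesenchymal response of those 188 genes was 0.80 and the median epithelial response -0.08. Among the 350 genes at 8 to 32-fold the median difference was -0.57, with 18 called lower. On the other side, the 824 genes that were 8 to 32-fold higher in sham mesenchyme had a median difference of 0.26, and 9 were called higher. The sham level enters both responses as their baseline, so these medians describe the table and carry no test. The filter also counted irradiated libraries, with or without anti-Ly6G. A gene under its limit in sham mesenchyme therefore entered only if it was higher after irradiation. Slc39a4 was such a gene, with mesenchymal counts of 4.04 to 7.10 in sham and 12.2 to 15.9 in irradiated mice. So were Pigr, with 4.06 to 9.09 and 14.4 to 30.7, and Ckap2, with 4.04 to 9.10 and 25.4 to 56.9. Irx3, Lrg1, Anxa8, Cldn3 and Abcc3 had fewer than 4 sham mesenchymal libraries at the limit and also needed irradiated ones. This selection favours differences below 0 in the epithelial bins, also for the tested epithelial markers below. It likewise favours differences above 0 for genes low in sham epithelium. Adamts6 was such a gene, with epithelial counts of 6.83 to 11.4 in sham and 18.6 to 40.2 in irradiated mice. The share of the selection in these values was not tested.

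The sums of some marker lists of other cells differed between sham and irradiated libraries of a fraction, and the sums of others did not separate them. The 16 pan-epithelial markers summed to 34.3 to 64.5 RPM in sham and 65.3 to 111 in irradiated mesenchyme, which did not overlap, and to 3315 to 3510 and 2943 to 3149 in epithelium. Of the 15 tested, all 15 had a difference below 0, with a median of -1.02, 10 rose in mesenchyme, and 2 differences were called by limma, 6 by edgeR and 10 by DESeq2. Type 2 cell markers in mesenchymal libraries summed to 534 to 1124 in sham and 1058 to 1807 in irradiated mice. Their 18 tested members were all below 0 with a median of -0.75, and 1 was called by limma, 1 by edgeR and 5 by DESeq2. Sums of club cell markers in mesenchymal libraries overlapped, at 1684 to 2221 RPM in sham and 1636 to 2041 in irradiated mice. Those of ciliated cell markers did too, at 221 to 232 and 223 to 256. A sum is weighted to abundant members, and the median mesenchymal response of tested members was 0.75 (club) and 0.42 (ciliated). The difference was below 0 for 13 of 17 tested club and 11 of 12 tested ciliated members, with medians of -0.99 and -0.63. Sftpc, the surfactant protein C gene, had a difference of -0.80 ± 0.256 that was not called by limma (adjusted p = 0.15) and was called by DESeq2 (adjusted p = 0.0455). In the epithelial libraries the 16 pan-mesenchymal markers summed to 1071 to 1231 in sham and 1262 to 1383 in irradiated mice, and all 15 tested had a difference above 0, with a median of 0.33. Of these 3 were higher at an unadjusted p under 0.05, none was called by limma or edgeR, and 1 was called by DESeq2. Sums of adventitial fibroblast markers in the epithelial libraries overlapped, at 635 to 689 RPM in sham and 640 to 709 in irradiated mice. Those of pericyte markers did not, at 71.6 to 83.5 and 87.4 to 118. The 15 tested adventitial members had a median epithelial response of 0.52, and 5 rose in epithelium (beside 3.02% of all genes). None of the pan-epithelial or pan-mesenchymal markers was at 0 in all libraries of a group.

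Leukocyte and endothelial markers were present in both fractions. The 15 leukocyte markers summed to 53.4 to 156 RPM in sham and 161 to 353 in irradiated mesenchyme, and to 331 to 373 and 353 to 459 in epithelium. The median sham ratio of the 14 tested members, epithelium over mesenchyme, was 0.355-fold, opposite to these sums. Their median response was 1.47 in epithelium and 1.19 in mesenchyme. Endothelial markers summed to 178 to 424 and 422 to 731 in mesenchyme and to 171 to 231 and 266 to 444 in epithelium. The differences of Ptprc, which encodes CD45 (0.58 ± 0.583), and of Pecam1, which encodes CD31 (0.03 ± 0.411), were not called. The 16 neutrophil markers summed to 200 to 393 RPM in sham and 259 to 461 in irradiated epithelium, which overlapped. In mesenchyme they summed to 15.3 to 45.7 in sham and 57.4 to 126 in irradiated mice. For the 10 tested neutrophil members the median sham ratio was 0.238-fold, again opposite to the sums. Their median response was 2.05 in epithelium and 1.79 in mesenchyme. Ly6g was the 1 member of that list at 0 in all sham epithelial libraries. With each library's leukocyte marker level as a covariate, 2 of the 95 genes remained called, Phlda3 and Dglucy. With the level of the other fraction's markers as a covariate, an alternative chosen after seeing the data, 3 remained, the same 2 and Ddit4l. Both marker levels had higher medians in irradiated than in sham libraries of each fraction. Irradiation and the content of other cells therefore cannot be told apart by these fits, also for the genes that remained called. In bulk samples fewer cells of a type and less RNA per cell cannot be told apart either.

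**Figure D5:**
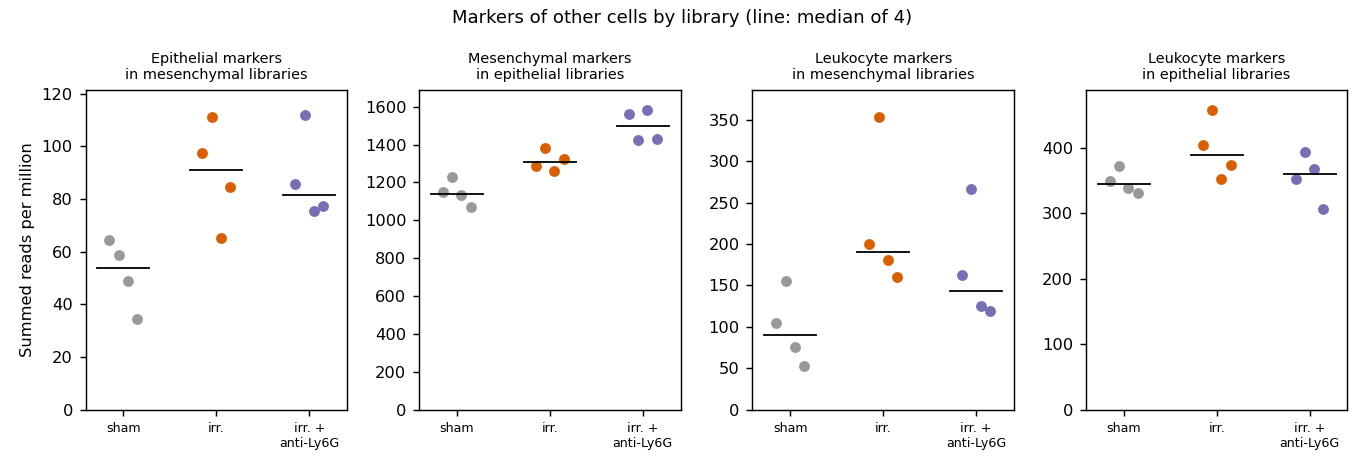
Summed RPM of marker lists in each library, by treatment (horizontal axis), with a line at the median of 4. Epithelial markers in the mesenchymal libraries and mesenchymal markers in the epithelial libraries are higher in every irradiated library than in any sham library.

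Ptx3 and Ass1 were less than 2-fold higher in sham epithelium. Ptx3, a secreted pentraxin of the acute phase, had sham levels of 10.3 RPM in epithelium and 5.57 in mesenchyme. Its mesenchymal counts rose from 44.6, 58.8, 42.4 and 58.2 to 196, 201, 84.4 and 123, and its epithelial counts were 90.7, 111, 131 and 101 in sham and 71.4, 78.0, 80.9 and 90.0 in irradiated mice. The difference was -1.91 ± 0.385 (limma adjusted p = 0.0206). Ptx3 was the 1 called member of 20 tested acute phase and complement genes, whose median difference was 0.09. Ass1, argininosuccinate synthase of the urea cycle, rose in both fractions without overlap, 1.86-fold in epithelium and 3.76-fold in mesenchyme. Its difference was -1.01 ± 0.235 (limma adjusted p = 0.0427).

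Other lower genes with named functions were 3.85-fold (Ncf1) to 22.8-fold (Sema4a) higher in sham epithelium than in sham mesenchyme. Inhbb, a subunit of activin B, had a difference of -1.56 ± 0.286 (limma adjusted p = 0.00952), with a mesenchymal rise of 2.30-fold. Itih4, a secreted inter-alpha-trypsin inhibitor chain, rose 2.09-fold in mesenchyme and its difference was -1.67 ± 0.303 (limma adjusted p = 0.012). Gpr39, a receptor that senses zinc, differed by -1.26 ± 0.226 (limma adjusted p = 0.00901). Anxa8, an annexin, differed by -2.15 ± 0.442 (limma adjusted p = 0.0206), and Sema4a, a semaphorin, by -1.49 ± 0.292 (limma adjusted p = 0.0142). Pik3ap1, an adaptor of PI3 kinase signalling, and Ncf1, a subunit of the phagocyte NADPH oxidase, are both genes of leukocytes as well, and their differences were -1.88 ± 0.387 and -1.56 ± 0.348. The part of the leukocyte content in these 2 differences was not tested apart from the covariate above.

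Other responses to irradiation were not called different between the fractions by limma. Of 21 tested clock genes none was called by limma, edgeR or DESeq2, and 2 were higher and 2 lower at an unadjusted p under 0.05. Dbp, an output gene of the clock, rose 3.69-fold in epithelium and 3.17-fold in mesenchyme, with a difference of 0.25 ± 0.64, and the clock activators Arntl and Npas2 differed by -0.33 ± 0.193 and -0.50 ± 0.262. The acute phase gene Saa3 rose 5.23-fold and 5.32-fold, and the 95% interval of its difference, -1.53 to 1.25, spans more than a doubling either way. Complement C3 differed by -0.16 ± 0.249, and the calprotectin subunit S100a8 by 1.29 ± 0.791. Lcn2, an iron-binding acute phase protein, differed by -1.26 ± 0.573 (limma adjusted p = 0.35). Lif, a cytokine of the interleukin 6 family, rose 2.71-fold in epithelium, and its difference of 1.10 ± 0.295 was not called (limma adjusted p = 0.0832). DESeq2 (adjusted p = 0.0143) and limma with library weights (adjusted p = 0.035) called Lif, and edgeR did not (adjusted p = 0.1245). The protease Plau differed by 1.01 ± 0.398, and the collagen gene Col1a1 by 0.28 ± 0.248.

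None of 34 tested proliferation genes was called by limma, edgeR or DESeq2, though 28 lay below 0, with a median difference of -0.41. At an unadjusted p under 0.05, 8 of them (beside 6.95% of all genes) were lower. The 12 tested mitochondrially encoded genes all lay above 0, with a median difference of 0.27. Of these 1 was higher at an unadjusted p under 0.05, none was called by limma or edgeR, and 1 was called by DESeq2. Among 35 interferon-stimulated genes the median was -0.17, with 2 lower at an unadjusted p under 0.05, no call by limma or edgeR and 1 by DESeq2. Among 40 DNA repair genes the median was -0.02, with 3 higher and 3 lower at an unadjusted p under 0.05 and no call by any of the 3 tools.

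In the irradiated mice given anti-Ly6G the same difference against the same sham libraries can be set beside these values. It was 2.88 ± 0.152 for Phlda3, 1.43 ± 0.173 for Ccng1, 0.76 ± 0.147 for Insig1 and -0.97 ± 0.112 for Ak1. It was -4.45 ± 0.385 for Ptx3, -4.62 ± 0.573 for Lcn2 and 0.03 ± 0.295 for Lif. The change between the irradiated groups was not tested, and both share the sham libraries.

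The most negative called differences were those of 3 predicted genes, named after their values were seen, whose symbols are often assigned to repeat-rich sequence, so their reads may belong to several copies. Gm10800 (chromosome 2, start 98666547, end 98667301) rose from a mean of 67.5 to 3206 in epithelium and from 9.09 to 4361 in mesenchyme. Irradiated libraries ranged from 1837 to 3824 in epithelium and from 2712 to 6656 in mesenchyme, and its difference was -3.20 (limma adjusted p = 0.012). Gm26870 and Gm10717, which overlap on chromosome 9, had differences of -3.17 and -3.05. Sham mesenchyme held 4 to 19 reads of Gm10800 per library, and 0 to 1 of Gm10717, whose mesenchymal rise was at least 16.5-fold when set against a limit of 3 reads per library. Gm10717 thus passed the filter in mesenchyme only through irradiated libraries.

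The 8 epithelial libraries of the contrast held 9776113 to 13373329 recovered reads each, and the 8 mesenchymal ones 7366672 to 11408083. The count of calls depended on single libraries. It was 48 without the second irradiated epithelial library, 50 without the third sham or the fourth irradiated epithelial library or the second irradiated mesenchymal library, and 51 without the third sham mesenchymal library. It was 58 without the fourth sham epithelial library, 334 without the second sham mesenchymal library and 173 without the third irradiated mesenchymal library. Phlda3, Dglucy, Ddit4l, Adamts6, Tgfbi, Snhg15, Ccng1, Cd34, Fam198b, Adamts1, Slc19a2 and Insig1 among the higher genes, and Ckap2, Ak1, Krt8, Cldn3, Inhbb, Itih4, Sema4a, Rbpjl, Slc39a4 and Gpr39 among the lower ones, stayed called without any 1 of the 24 libraries. The other 18 named calls, Bax, Btg2, Ddit4, Ptx3, Ass1 and Pigr among them, were each lost without at least 4 of the libraries, taken singly.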

How the data were processed

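RNA from sorted lung cells was depleted of ribosomal RNA and sequenced, 1 library per mouse and fraction. Per the submitters' processing notes, cutadapt 1.5, STAR 2.2.2a, SAMtools 1.8, RSEM 1.3.0, DESeq2 and the genome build GRCm38 were used. The authors deposited 1 table per fraction, whose signal is a normalised count, the reads of a gene over the library's size factor. Values were whole multiples of 1 step per library within 0.001 for 100% of values, so reads could be recovered. The tables were scaled separately, so changes were formed within a table, and sham levels are set side by side only as RPM (a gene's share of the recovered reads, scaled to a common total). The annotation used by the authors is not given in the sources used here. Symbols and positions came from GENCODE M21 on GRCm38 (48435 of 48795 identifiers matched).

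The difference of responses was tested with limma 3.58.1 (trend, robust) in R 4.3.3 on log2(value + 1) over all 24 libraries with 6 group means, and p-values were adjusted over the 15092 genes by Benjamini-Hochberg. Such fold changes understate changes of low genes. Errors of differences and responses are standard errors of this fit, and folds are ratios of group means. The p-values measure the spread between mice within a group, with all libraries taken as independent. A count of 0 allows up to 3 reads, and this covers counting error only, since reads carried no molecular identifiers.

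Named genes were the 15 largest called differences in each direction with a group mean of at least 50, without predicted genes, small RNAs and pseudogenes, every called list member, and 24 genes fixed by name. The comparison, the gene lists and the marker lists were chosen with earlier results of these data known. Sham ratios use a pseudocount of 0.1 RPM. The fit was tested on simulated data. Alternatives included edgeR 4.0.16 and DESeq2 1.42.0 on recovered reads. Some members of the cholesterol list are counted but not reported singly here.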

Additional observations from a re-analysis of the deposited data

Results flagged for a closer look

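The 2 fractions differed in their response, tested as the difference itself, for 95 genes, 30 with a higher and 65 with a lower epithelial response. The named genes with a higher one, with the log2 difference, were Phlda3 (2.84), Dglucy (1.84), Ddit4l (1.78), Adamts6 (1.68), Tgfbi (1.55), Snhg15 (1.40), Ccng1 (1.35), Cd34 (1.18), Hspa12b (1.03), Fam198b (0.97), Tbx3 (0.96), Adamts1 (0.95), Slc19a2 (0.89), Adgrl3 (0.89), Insig1 (0.82), Bax (0.79) and Btg2 (0.53). The named genes with a lower one were Pigr (-2.36), Anxa8 (-2.15), Ckap2 (-2.06), Ptx3 (-1.91), Pik3ap1 (-1.88), Itih4 (-1.67), Lrg1 (-1.66), Ncf1 (-1.56), Inhbb (-1.56), Abcc3 (-1.54), Sema4a (-1.49), Irx3 (-1.48), Rbm47 (-1.47), Rbpjl (-1.44), Slc39a4 (-1.33), Gpr39 (-1.26), Ddit4 (-1.14), Krt8 (-1.14), Cldn3 (-1.06), Ass1 (-1.01), Cbr2 (-0.68), Muc1 (-0.64) and Ak1 (-0.57).

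In 8 of 232 groups of 4 libraries checked over the named genes, 1 library stood apart from the other 3 by Dixon's ratio of the gap to the range, which chance does in about 1 of 20 groups. The lowest sham epithelial library stood apart for Insig1 (ratio 0.871) and the highest for Saa3 (0.927). The highest irradiated epithelial library stood apart for Saa3 (0.924) and Epcam (0.839), and the lowest for Abcc3 (0.971). The highest irradiated mesenchymal library stood apart for Ptprc (0.830) and Pik3ap1 (0.965), and the lowest for Arntl (0.886).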

How the results depend on the processing

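The 95 calls (30 higher, 65 lower in epithelium) became 157 (51 and 106) with each table fitted alone and 199 (64 and 135) with library weights. edgeR on recovered reads called 155, of which 114 lower, and DESeq2 on recovered reads called 435 (140 and 295), and each kept 91 of the 95. With a leukocyte marker covariate 2 were called (2 and 0), and with a covariate for markers of the other fraction, added after seeing the data, 3 (3 and 0). With these covariates the median difference of the type 2 cell markers was -0.07 and 0.15, that of the pan-epithelial markers -0.31 and -0.09, and that of the cholesterol list 0.20 in both. Under the second covariate the difference of Muc1 was 0.0334, opposite in sign, and the cause was not tested. Leaving out 1 library at a time gave 48 to 334 calls, 19 to 87 higher and 29 to 247 lower.

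Numbers 1 to 4 are shared by the fractions and groups, but the labels do not tie a number to 1 mouse or day. Correlations of the deviations of same-numbered libraries of the 2 fractions ranged from -0.04 to 0.25, and 9 of 12 epithelial libraries correlated best with their own number. With the mouse number as a replicate block 218 genes were called (82 higher, 136 lower), Cdkn1a (adjusted p = 0.0131) and Eda2r (adjusted p = 0.0424) among them, and with the number as a replicate block within each fraction 261 (67 and 194). The other alternatives gave counts within 1.5 times of these 95, 30 and 65, namely other pseudocounts and filters, the 16 libraries alone, TMM scaling, centring, and removal of length and GC trends. With the 16 libraries alone 61 of the 95 calls were kept.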
